A study of Mus musculus with 4 samples.

Results

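The endocannabinoid genes examined here were 1 receptor gene (Cnr1), 3 genes for enzymes that make its lipid ligands (Dagla, Daglb and Napepld) and 4 genes for enzymes that break them down (Mgll, Faah, Abhd6 and Abhd12). They were taken by symbol: every probe set whose platform annotation gives 1 gene symbol, that symbol being one of these 8, was a member. All 8 genes were found, through 15 probe sets, out of 18193 genes and 34945 probe sets with 1 symbol. No probe set annotated with several symbols carried one of the 8 names. The data were Affymetrix MOE430 2.0 arrays of mouse prefrontal cortex, 1 array for each of 4 RNA pools. The 2 control pools came from mice of the environment labelled LowThreat, and the 2 threat pools from mice of the environment labelled HighThreat, which met repeated social threat. Each pool held RNA of 5 mice. The labels used here name no strain, sex, age or genotype, and no duration of the exposure. A pool averages its animals, and p-values therefore measure how pools vary, not how mice vary.

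Endocannabinoids are lipid messengers made on demand from membrane lipids. In cortex, 2-arachidonoylglycerol is cut from diacylglycerol in the postsynaptic cell, crosses the synapse backwards and acts on the CB1 receptor of the presynaptic terminal, where it lowers transmitter release. Anandamide, the other main ligand, is made from N-acylphosphatidylethanolamines and is broken down mainly by a different enzyme. In cortex the CB1 receptor is densest on interneurons that contain cholecystokinin, and it is also found on excitatory terminals. The system is known for its part in stress responses and in the return to baseline after stress.

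Values are log2 expression values, so a difference of 1 is a doubling. The 4 arrays correlated with each other at 0.9942 to 0.9961 over all probe sets. Every member value lay above 4.25, the top value reached by the 27 control probe sets for Bacillus transcripts, which serve as a guide to background. In limma's test of threat against control, 0 of 45037 probe sets (0%) had a Benjamini-Hochberg adjusted p under 0.05, and 4774 (10.6%) had an unadjusted p under 0.05. The latter number was 3020 when control pool 1 was left out, 3176 for threat pool 1 and 2922 for threat pool 2. Of the 4774, 45.9% lay higher in threat, a share that was 36.6% after cyclic loess and 64.2% after each array was centred on its median. A difference of at least 1.5-fold was reached by 0.928% of probe sets and by 0 of the 15 member probe sets.

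Cnr1, the CB1 receptor gene, lay lower in both threat pools by its brighter probe set and higher on average by its dimmer one. The brighter probe set, 1434172_at, measured 11.48 in control pool 1, 11.88 in control pool 2, 11.32 in threat pool 1 and 11.37 in threat pool 2. The threat pools lay close together and below both control pools, and most of the distance came from control pool 2. The means were 11.68 ± 0.28 in control and 11.34 ± 0.03 in threat (SD, n = 2 each). This is a log2 difference of -0.34 ± 0.15 (SE), or 1.27-fold. Its 95% interval ran from -0.71 to 0.03, and its adjusted p was 0.489 by limma. Leaving out control pool 2 brought the difference to -0.14, and leaving out control pool 1 brought it to -0.54.

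The dimmer Cnr1 probe set, 1419425_at, measured 7.29 in control pool 1, 7.86 in control pool 2, 7.66 in threat pool 1 and 8.05 in threat pool 2. These groups overlap, since control pool 2 lay above threat pool 1. The log2 difference was 0.28 ± 0.22 (SE), with a 95% interval from -0.28 to 0.84 and an adjusted p of 0.651 by limma. Without control pool 1 it was 0.00, and without control pool 2 it was 0.57. In both probe sets control pool 2 lay above control pool 1 and threat pool 2 above threat pool 1, while the threat pools sat at different heights relative to the controls. The log2 value of the brighter probe set minus that of the dimmer one was 4.19 in control pool 1, 4.03 in control pool 2, 3.66 in threat pool 1 and 3.31 in threat pool 2. The differences of these probe sets were thus 0.62 apart, which was set against other genes after the values were seen. Over 7119 genes with at least 2 probe sets above the Bacillus controls, the differences of the 2 brightest probe sets lay a median of 0.13 apart, and 2.05% of these genes reached the distance of Cnr1. The mean of the Cnr1 probe sets differed by -0.03. The deposited table does not say which part of the transcript each probe set reads.

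**Figure D1:**
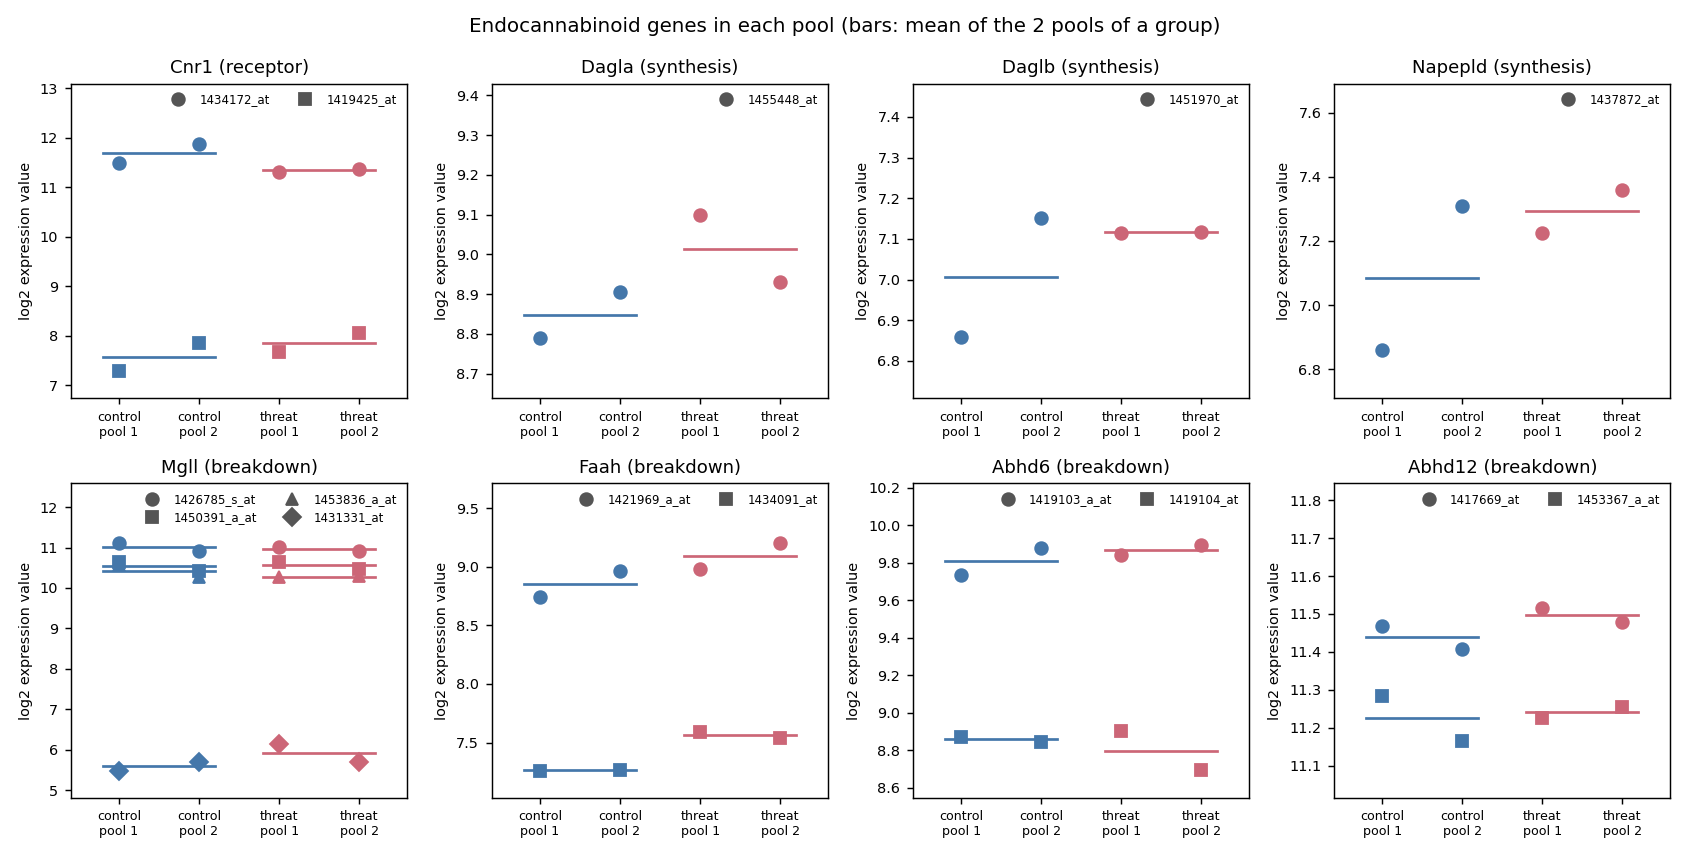
Log2 expression value (vertical axis) of each of the 15 probe sets in the 4 pools (horizontal axis), with 1 panel per gene and a vertical scale of its own in each panel. Blue marks are control pools, red marks threat pools, the shape marks the probe set, and horizontal bars are means of 2 pools. The brighter Cnr1 probe set lies lower in both threat pools (11.32 and 11.37) than in the control pools (11.48 and 11.88), and both Faah probe sets lie higher in both threat pools.

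The 3 genes of ligand synthesis all had higher means in threat, with log2 differences between 0.11 and 0.21, and in all 3 control pool 1 was the lowest of the 4 pools. Dagla encodes the diacylglycerol lipase that makes most of the 2-arachidonoylglycerol of the adult brain. Its single probe set measured 8.79 in control pool 1, 8.91 in control pool 2, 9.10 in threat pool 1 and 8.93 in threat pool 2. Both threat pools lay above both control pools, with threat pool 2 only 0.02 above control pool 2. The log2 difference was 0.17 ± 0.11 (SE), or 1.12-fold, with a 95% interval from -0.10 to 0.43 and an adjusted p of 0.585 by limma. After cyclic loess the pools of Dagla overlapped and its difference was 0.10. It was 0.08 without threat pool 1 and 0.11 without control pool 1.

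Daglb encodes the related lipase, which is prominent in microglia and macrophages. It measured 6.86 in control pool 1, 7.15 in control pool 2, 7.11 in threat pool 1 and 7.12 in threat pool 2. Control pool 2 was the highest and control pool 1 the lowest, with the threat pools between them. The log2 difference was 0.11 ± 0.12 (SE; adjusted p = 0.756 by limma), and it turned to -0.04 without control pool 1. Napepld encodes the phospholipase D that releases anandamide and other N-acylethanolamines from their membrane precursors. It measured 6.86 in control pool 1, 7.31 in control pool 2, 7.23 in threat pool 1 and 7.36 in threat pool 2. Control pool 2 lay between the threat pools, and control pool 1 stood 0.45 below control pool 2. The log2 difference of 0.21 ± 0.17 (SE; adjusted p = 0.651 by limma) turned to -0.01 without control pool 1. The median over the 3 synthesis genes was 0.17, and -0.01 without control pool 1.

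Among the genes of ligand breakdown, Faah had the largest difference by the brightest probe set, at 0.24 against -0.05 to 0.06 for the other 3, and both its probe sets lay higher in both threat pools. Faah encodes fatty acid amide hydrolase, the main enzyme that degrades anandamide, an integral membrane protein of neurons. Its brighter probe set, 1421969_a_at, measured 8.74 in control pool 1, 8.96 in control pool 2, 8.98 in threat pool 1 and 9.20 in threat pool 2. Both threat pools lay above both control pools, with threat pool 1 only 0.02 above control pool 2. The log2 difference was 0.24 ± 0.13 (SE), or 1.18-fold, with a 95% interval from -0.08 to 0.56 and an adjusted p of 0.528 by limma. After cyclic loess its pools overlapped and the difference was 0.17. It was 0.13 without control pool 1 or without threat pool 2.

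The other Faah probe set, 1434091_at, was the member with the smallest p. It measured 7.262 in control pool 1, 7.265 in control pool 2, 7.59 in threat pool 1 and 7.54 in threat pool 2. The control pools were nearly equal, and both threat pools lay clearly above them. The log2 difference was 0.30 ± 0.09 (SE), or 1.23-fold, with a 95% interval from 0.08 to 0.52. Its unadjusted p was under 0.05 and its adjusted p was 0.436 by limma. Leaving out any 1 pool moved it between 0.28 and 0.32, and its threat pools remained above the control pools after cyclic loess (0.24) and after median centring (0.34).

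Mgll encodes monoacylglycerol lipase, which clears most of the 2-arachidonoylglycerol in brain. Its brightest probe set, 1426785_s_at, measured 11.10 in control pool 1, 10.91 in control pool 2, 11.01 in threat pool 1 and 10.91 in threat pool 2. The groups overlapped, and pool 1 was above pool 2 in each of them. The log2 difference was -0.05 ± 0.11 (SE), with a 95% interval from -0.32 to 0.22 and an adjusted p of 0.891 by limma. The suffix _s_at marks probes shared by more than 1 transcript. Of its 3 other probe sets, 1450391_a_at differed by 0.03 and 1453836_a_at by -0.14, and the dim 1431331_at, with a mean of 5.76 over the 4 pools, differed by 0.32. The pools of all 4 Mgll probe sets overlapped, and the dim probe set had the widest spread in threat, at 6.14 and 5.70. Its difference was 0.10 without threat pool 1 and 0.54 without threat pool 2.

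Abhd6 and Abhd12 encode serine hydrolases that clear the rest of the 2-arachidonoylglycerol. Abhd6 acts in the postsynaptic cell, and Abhd12, prominent in microglia, is also known as a lipase of lysophosphatidylserine. The brighter Abhd6 probe set, 1419103_a_at, measured 9.73 in control pool 1, 9.88 in control pool 2, 9.84 in threat pool 1 and 9.89 in threat pool 2, and the groups overlapped. Its log2 difference was 0.06 ± 0.10 (SE; 95% interval -0.19 to 0.31), and that of the dimmer one was -0.06 ± 0.11 (-0.33 to 0.21). The brighter Abhd12 probe set, 1417669_at, measured 11.47 in control pool 1, 11.41 in control pool 2, 11.51 in threat pool 1 and 11.48 in threat pool 2. Its threat pools lay above its control pools by a narrow margin, with a log2 difference of 0.06 ± 0.09 (SE; 95% interval -0.17 to 0.28). The second Abhd12 probe set differed by 0.02 and its pools overlapped. The upper ends of these 4 intervals correspond to log2 differences of 0.21 to 0.31, which does not show that the levels of the groups were equal. The median over the 4 breakdown genes was 0.06.

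**Figure D2:**
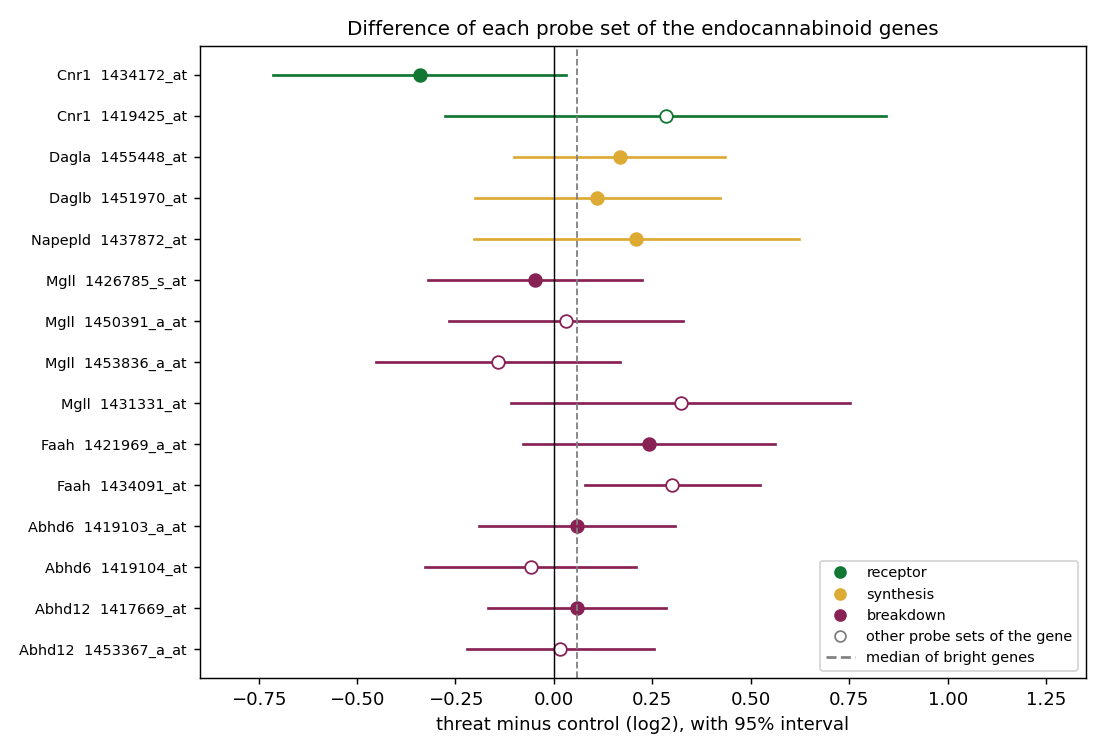
Log2 difference of threat minus control (horizontal axis) with its 95% interval from limma for each of the 15 member probe sets (vertical axis), coloured by role. Filled points are the brightest probe set of a gene, open points its other probe sets, and the dashed line is the median of 0.06 over genes whose brightest probe set is brighter than the middle probe set of the array. The interval of 1 probe set, Faah 1434091_at, lies wholly above 0, and the Cnr1 probe sets point in opposite directions.

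Over the 15 member probe sets, 0 had an adjusted p under 0.05 in limma's test, and 1 had an unadjusted p under 0.05 with threat higher, against 4.87% of all probe sets. Threat pools lay wholly above control pools in 4 of the 15 (23.9% of all probe sets) and wholly below in 1 (19.4%). By the brightest probe set of each gene, Dagla, Faah and Abhd12 lay wholly above and Cnr1 wholly below, 3 and 1 of 8 genes. All 8 genes were brighter on average than 5.56, the middle value over probe sets, and over the 11931 genes of that kind ("bright" genes) 33.1% lay wholly above and 15.5% wholly below. The counts of the members are thus near the share that bright genes show in general. The 4 of 8 came to 2 after cyclic loess (Abhd12 above, Cnr1 below) and to 2 when the probe sets of a gene were averaged. Shares over all genes were not taken in these settings. Leaving out 1 pool also moved the count, but 1 pool against 2 separates more easily, so such counts are not set beside the 4 of 8. By the brightest probe set, 0 of the 8 genes had an unadjusted p under 0.05 in limma's test. With the pool number as a replicate block Faah had one, with threat higher, as it had when probe sets were averaged. With that block 6054 of all probe sets had one, in place of 4774. Cnr1 had one, with threat lower, with an intensity trend and without control pool 1, and Napepld one, with threat higher, without control pool 2. The median log2 difference of the 8 genes was 0.08, beside 0.06 over all bright genes, whose quartiles were -0.06 and 0.16. Control pool 1 was the lowest of the 4 pools in 5 of the 8 genes, and in 30.1% of bright genes.

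The wider list held 36 genes of the pathway, of which 32 were measured under a single symbol. In limma's test 0 of the 32 had an adjusted p under 0.05, and 3 had an unadjusted p under 0.05, each with threat lower (5.76% of all genes). That number was 6 with the pool number as a replicate block (5 lower and 1 higher), 5 with an intensity trend and 0 without threat pool 1. Over all probe sets the number was 6054 with the block and 4788 with the trend, in place of 4774. Threat pools lay wholly above control pools in 7 genes (26.2% of all genes) and wholly below in 8 (18.8%), with a median log2 difference of 0.00. The higher and lower counts were 4 and 8 after cyclic loess and 11 and 7 after median centring. Shares over all genes were not taken there. Of all probe sets with an unadjusted p under 0.05 by limma, 36.6% and 64.2% lay higher in threat in these settings. The total of 15 moved when 1 pool was left out, but 1 pool against 2 separates more easily, so such counts are not set beside that total.

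By role, the other receptors and receptor partners had 3 genes wholly above and 2 wholly below of 9 measured, with a median of 0.00. The next 4 genes are named for their role, outside the rule of size. Cnr2, the CB2 receptor of immune cells, and the ion channel Trpv1 did not exceed the Bacillus controls in any pool, so no size is given for them. Cnrip1, which binds the tail of the CB1 receptor, differed by 0.11 ± 0.10 (SE), and Sgip1, which holds that receptor at the cell surface, by 0.17 ± 0.09. The route to the precursors and the other ways of synthesis had 3 genes wholly above and 1 wholly below of 11, with a median of 0.06. The further enzymes of breakdown and oxidation had 0 wholly above and 3 wholly below of 8, with a median of -0.12, and the 4 intracellular carriers 1 and 2, with a median of -0.06. In 5 of the 32 genes no pool exceeded the Bacillus controls. Without them, a filter added after the values were seen, the receptors had 2 wholly above and 2 wholly below of 6 (median 0.03), and breakdown and oxidation 0 and 2 of 6 (median -0.21).

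The 4 bright genes of this list with the largest differences all lay lower in threat. Abhd4 encodes a lipase that starts a route to anandamide beside that of Napepld. Its brighter probe set, 1439259_x_at, measured 11.06 in control pool 1, 11.01 in control pool 2, 10.53 in threat pool 1 and 10.72 in threat pool 2. The groups did not overlap, and the log2 difference was -0.41 ± 0.11 (SE; adjusted p = 0.429 by limma, unadjusted p under 0.05). Its other probe set differed by -0.20 ± 0.11, with both threat pools below both control pools. The suffix _x_at marks probes that may also bind unrelated transcripts.

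Fabp7, a fatty acid binding protein of astrocytes and radial glia that can carry anandamide, measured 11.64 in control pool 1, 11.86 in control pool 2, 11.05 in threat pool 1 and 11.40 in threat pool 2. Both threat pools lay below the control pools, at a log2 difference of -0.53 ± 0.15 (SE; adjusted p = 0.433 by limma, unadjusted p under 0.05). Lypla1, a thioesterase first described as a lysophospholipase, differed by -0.35 ± 0.11 by its brightest probe set (adjusted p = 0.436 by limma, unadjusted p under 0.05) and by 0.02 by the second brightest. Pla2g4a, the cytosolic phospholipase that frees arachidonic acid from membranes, differed by -0.57 ± 0.28 (adjusted p = 0.512), and by -0.15 without threat pool 1, where it measured 5.19 against 6.02 in threat pool 2.

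A further 4 genes are named after their values were seen. Scp2, a sterol carrier protein, differed by 0.07 by its brightest probe set, while 1449686_s_at differed by -0.69 ± 0.12 (SE; adjusted p = 0.401 by limma) and 1419975_at by -0.72 ± 0.12 (adjusted p = 0.4001). Ptgs2, the inducible cyclooxygenase that can oxidise endocannabinoids, had probe sets that pointed in opposite directions, at -0.33 ± 0.25 and 0.32 ± 0.22. Both had overlapping pools, and their differences lay 0.65 apart, close to the distance of the Cnr1 probe sets. Gnaq, the G protein subunit that couples receptors to phospholipase C, had 4 of its 5 brightest probe sets wholly higher in threat, with log2 differences of 0.12 to 0.30. The lowest of these 5, 1428939_s_at, lay wholly lower, at -0.40 ± 0.17 (SE). Plcb4, a phospholipase C that yields diacylglycerol, had its 3 brightest probe sets wholly higher, by 0.23, 0.39 and 0.33. Their adjusted p values by limma were 0.539, 0.484 and 0.498.

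**Figure D3:**
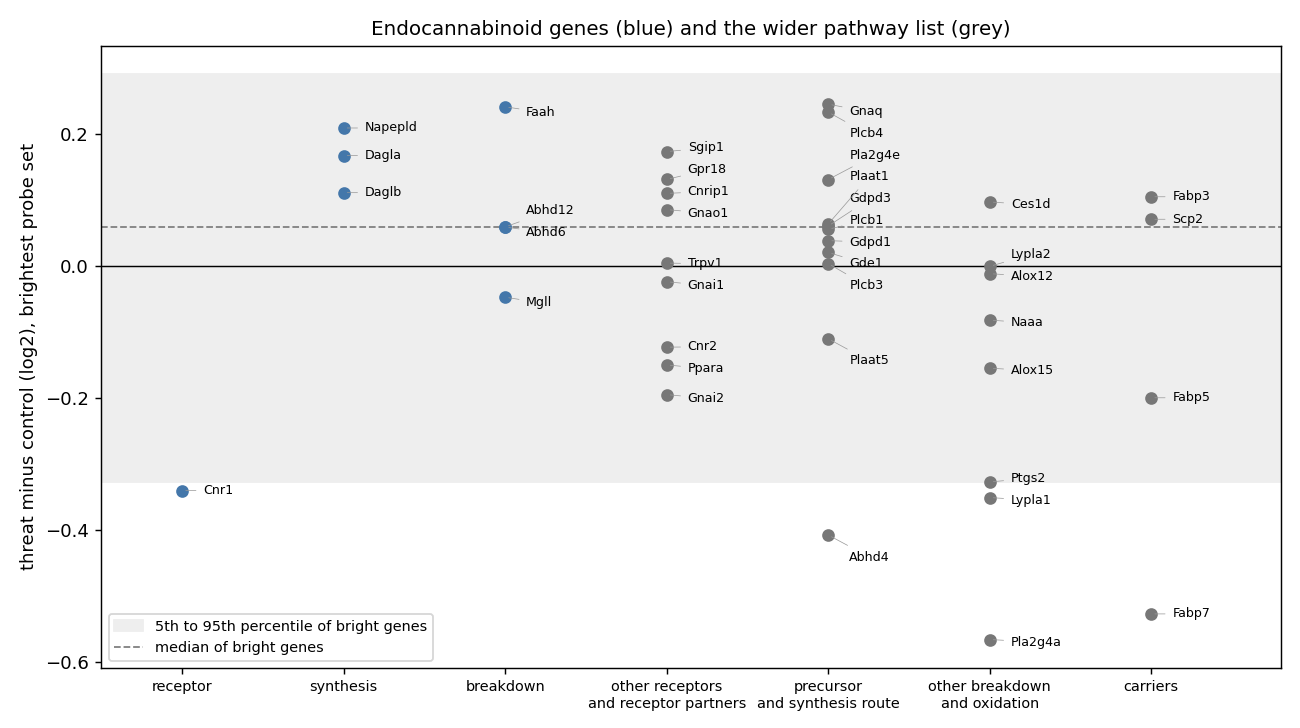
Log2 difference of threat minus control (vertical axis) by the brightest probe set of each gene, grouped by role (horizontal axis), for the 8 endocannabinoid genes in blue and the 32 measured genes of the wider list in grey. The band runs from the 5th to the 95th percentile of bright genes (-0.33 to 0.29) and the dashed line is their median of 0.06. Of the 8 genes only Cnr1, at -0.34, lies outside the band, and Abhd4, Lypla1, Fabp7 and Pla2g4a lie below it.

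Marker genes of the tissue and of its cell types were read beside these values. Of all genes, 26.2% lay wholly above and 18.8% wholly below, and of bright genes 33.1% and 15.5%. The excitatory cortical markers Slc17a7, Neurod6 and Tbr1 were all well above the Bacillus controls, which matches the cortical label. Slc17a7 lay wholly higher in threat (0.23 ± 0.10, log2, SE), and Neurod6 (-0.39 ± 0.10) and Tbr1 (-0.53 ± 0.11) wholly lower, the latter pair with an unadjusted p under 0.05 by limma. Cck, which excitatory cortical neurons express as well as interneurons, and Vip, which marks a class that only partly overlaps with cholecystokinin cells, differed by 0.00 ± 0.12 and 0.04 ± 0.14 (log2, SE). In mixed tissue they do not read out the cells that carry the CB1 receptor alone. The list of 6 genes for cholecystokinin and Vip interneurons had a median of 0.06, with 2 genes wholly above and 0 wholly below. That is near what bright genes show in general, with a median of 0.06 and 33.1% wholly above. Mean log2 levels of this list were 9.13 and 9.26 in control and 9.30 and 9.27 in threat. The list of 5 genes for other interneurons had a median of -0.28, with 1 gene wholly above and 2 wholly below, and mean levels of 10.12 and 9.89 in control and 9.98 and 9.74 in threat. The 2 wholly below were Gad1 and Gad2, which make GABA in all inhibitory neurons, at -0.42 ± 0.09 (unadjusted p under 0.05 by limma) and -0.28 ± 0.12. The 3 markers of classes, Pvalb (-0.30 ± 0.25), Sst (0.00 ± 0.17) and Lhx6 (0.26 ± 0.13, wholly above), had a median of 0.00. Gad2 and Lhx6 were named after their values were seen. The excitatory list of 6 genes had a median of 0.02. In tissue RNA, fewer cells of a type and less RNA per cell cannot be told apart.

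The marker lists for oligodendrocytes, endothelium, mural and meningeal cells, choroid plexus and ependyma, and blood had larger median differences than the 8 genes. For the counts below, 18.8% of all genes and 15.5% of bright genes lay wholly lower in threat. All 9 measured markers of myelinating oligodendrocytes lay wholly lower in threat, with a median log2 difference of -0.99 and mean levels of 10.57 and 10.10 in control and 9.20 and 9.42 in threat. Mural and meningeal markers lay wholly lower in 4 of 6 genes (median -0.86), with mean levels of 8.47 and 9.41 in control and 7.63 and 8.40 in threat. Those 4 were Acta2, Pdgfrb, Tagln and Myl9, while the fibroblast genes Dcn (-0.41 ± 0.44, SE) and Col1a1 (-0.12 ± 0.36) had overlapping pools. Endothelial markers lay wholly lower in 4 of 5 (median -0.34), with mean levels of 7.53 and 7.92 in control and 7.10 and 7.45 in threat. Astrocyte markers lay wholly lower in 3 of 7 (median -0.08), with mean levels of 10.71 and 10.76 in control and 10.50 and 10.66 in threat. Microglial markers lay wholly lower in 2 of 6 (median -0.11), with mean levels of 9.56 and 9.45 in control and 9.33 and 9.45 in threat. Choroid plexus and ependymal markers lay wholly lower in 3 of 5 genes (median -0.47), with mean levels of 5.999 and 5.40 in control and 5.12 and 5.21 in threat. That median is the value of Foxj1, whose threat pools (4.12 and 4.01) lay under the top Bacillus value. Kl (0.03) and Folr1 (-0.08) had overlapping pools. Blood markers lay wholly lower in 3 of 4 (median -0.75), with mean levels of 6.72 and 6.17 in control and 5.90 and 5.66 in threat. The 3 were Alas2 (-0.61), S100a8 (-1.02) and S100a9 (-0.89). The globin gene Hba-a1, dim at a mean of 4.85, had overlapping pools (-0.16). Control pool 1 had the highest mean level in the choroid plexus and blood lists. It also had the highest in the oligodendrocyte, microglial and striatal lists and in that of other interneurons. The choroid plexus gene Ttr measured 9.05 in control pool 1 and 6.48, 6.15 and 6.18 in the other pools. Striatal markers lay wholly lower in 0 of 3, with mean levels of 8.45 and 7.89 in control and 8.34 and 8.08 in threat. The defining markers Mbp, Mobp, Gfap, Aqp4, Cx3cr1 and Csf1r lay far above the Bacillus controls in every pool. The part of these cells in the differences of Cnr1, Faah and the other endocannabinoid genes was not tested.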

How the data were processed

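RNA of mouse prefrontal cortex was measured on 4 arrays, 2 control and 2 threat pools of 5 mice each. The deposited values were log2 expression values made by the authors with RMA, per the submitters' processing notes; RMA as usually run brings arrays to a common distribution, which would hide a shift of most transcripts. Version and settings: not given in the sources used here. Since no genome build is named, no coordinates are printed. The number of arrays limits the precision.

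Of 45101 probe sets, 64 controls were left out. Symbols came from the platform annotation, and the Entrez IDs of all 8 genes matched a RefSeq gene table. Threat was compared with control on all 45037 probe sets in R 4.3.3 by limma 3.58.1 (eBayes after lmFit, 2-sided, Benjamini-Hochberg adjustment), checked on simulated data. Intervals are 95%. An exact permutation test of 2 against 2 pools cannot go below p = 0.333 and was not used. The probe set with the highest mean stood for its gene. Pools are called wholly above or below where no threat pool overlaps a control pool. Named genes were all members and the 4 genes of the wider list with the largest difference and a mean above 5.56; exceptions are marked. Members and lists were chosen with earlier results of these data known. Alternatives were a replicate block, cyclic loess, median centring, an intensity trend, bright probe sets, probe set classes, means of probe sets, an adjusted p of 0.1 and leaving out each pool.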

Additional observations from a re-analysis of the deposited data

How the results depend on the processing

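No alternative gave any probe set an adjusted p under 0.05, and with all pools none was under 0.1. Pool numbers are not stated to pair the samples, and with 2 numbers the data cannot settle it: pool 1 minus pool 2 correlated at 0.33 between the groups over all probe sets. With the pool number as a replicate block, 6054 of all probe sets had an unadjusted p under 0.05 by limma, in place of 4774. With that block, 6 genes of the wider list had one in place of 3, and Faah had one where 0 of the 8 member genes did before. An intensity trend gave 5, and leaving out 1 pool gave 0 to 4. The unadjusted count over all probe sets was 3075 among bright ones and 2922 to 4037 with 1 pool left out. Genes with separate pools numbered 4 to 8 of the 8 members and 21 to 27 of the 32 in the wider list with 1 pool left out. There 1 pool is set against 2, which separates more easily. These counts therefore cannot be compared with the 4 and 15 found with all pools, and no conclusion is drawn from them. With all pools kept, 2 of the 8 members had separate pools after cyclic loess or with averaged probe sets. Shares over all genes were not taken in any of these settings. With averaged probe sets, the log2 difference was -0.0286 for Cnr1, 0.0407 for Mgll and -0.0004 for Abhd6, where it turned sign for the latter pair, and the breakdown median was 0.0391. That median was 0.026 after cyclic loess, 0.0945 after median centring and 0.0539 to 0.08 with 1 pool left out. The synthesis median ranged from -0.0147 to 0.2573 with 1 pool left out. Cyclic loess turned Mgll 1450391_a_at to -0.0048 and Abhd12 1453367_a_at to -0.0037. Leaving out 1 pool gave both signs for Daglb (-0.0361 to 0.2573), Napepld (-0.0147 to 0.4319), Mgll 1426785_s_at (-0.143 to 0.0473), 1450391_a_at (-0.0684 to 0.1312) and 1453836_a_at (-0.2889 to 0.0027), Abhd6 1419103_a_at (-0.015 to 0.1319) and 1419104_at (-0.1614 to 0.0427), and Abhd12 1453367_a_at (-0.0437 to 0.0756). The cause was not tested. The other member probe sets, those of Dagla, Cnr1 and Faah among them, did not change sign in any setting that kept probe sets separate. With 1 pool left out, though, Dagla ranged from 0.082 to 0.2518, Faah 1421969_a_at from 0.1282 to 0.3532 and Cnr1 1419425_at from 0.00 to 0.5671. The Cnr1 difference of -0.0286 with averaged probe sets was opposite in sign to that of 1419425_at. All member values lay above the Bacillus controls, which does not test whether a dim probe set reads its own transcript alone.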
